A study of Mus musculus with 24 samples.

Results

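The genes described here are 9 secreted or membrane-bound members of the bone morphogenetic protein (BMP) and activin system: the BMP-type ligands Bmp2, Bmp4, Bmp6 and Gdf10, the activin subunits Inhba and Inhbb, the secreted antagonists Grem1 and Fst, and the decoy receptor Bambi. They were chosen by name, as 9 of the 55291 gene names in each deposited table, with earlier results of these data known. The shares of the 9 that were called are therefore a description. All 9 were among the 16258 genes that passed the filter on low counts and were tested. Total RNA of mouse pulmonary fibroblasts was sequenced in 24 libraries, 3 for each of 8 conditions. The cells came from wild-type (WT) C57BL/6 mice or from TLR4-/- mice on the same background, named for Toll-like receptor 4, a cell-surface receptor of innate immunity. The allele is not described in the sources used here. Donors were 4 to 8 weeks old, and the cells of each group came from a pool of 3 to 4 lungs and were used at passages 3 to 6. After a night in reduced-serum medium, they received PBS, 1 μg/ml recombinant mouse cold-inducible RNA-binding protein (rmCIRP), rmTGF-β1, the recombinant mouse form of TGF-β1, at 2 ng/ml, or both agents, for 24 h. Extracellular CIRP is a danger signal that binds TLR4, and TGF-β1 is the principal inducer of myofibroblast differentiation. Because lungs were pooled and the labels do not tie libraries to separate animals, the p-values measure only the spread between these libraries, which may be technical.

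The depth of the libraries was between 29853346 and 39664606 reads assigned to genes. Levels are given as normalized counts, which are counts divided by the library's DESeq2 size factor. Changes are log2 fold changes from edgeR's quasi-likelihood test with 1 standard error (SE), and a gene was called changed at an adjusted p (Benjamini-Hochberg over all genes tested) under 0.1. Whether libraries of compared conditions overlapped was recorded for the listed genes only. Its share over all genes was not counted, so overlap is given as a description. Tlr4 was not lower in the libraries labelled TLR4-/-: with PBS its mean was 903.3 ± 20.2 (SD, n = 3) normalized counts, against 759 ± 41.9 (SD, n = 3) in WT. The tables hold a single count for each gene and not for its exons, so a deletion of part of Tlr4 would not show in them, and the genotype is given throughout as labelled. Xist, which is transcribed from an inactive X chromosome, had at most 3 raw counts in each WT library and 4403 to 6201 in each library labelled TLR4-/-, so the genotypes also differ in this marker of sex. The 10 fibroblast markers summed to 681670 to 903950 normalized counts per library and none was at 0. The 13 macrophage markers, none at 0 either, summed to 75991 to 95614 in WT libraries and to 314310 to 402820 in libraries labelled TLR4-/-. A pair of libraries stood apart from their replicates: the chi-square per degree of freedom was 11.9 and 15.6 for library 3 labelled TLR4-/- with rmTGF-β1 against its replicates, and 45.7 and 31.3 for library 3 labelled TLR4-/- with both agents, against 2.52 to 7.03 in the other 20 pairs. These 2 libraries will be called the libraries that stood apart.

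BMPs and activins are dimeric ligands of the TGF-β superfamily. They bring together type I and type II serine/threonine kinase receptors, which phosphorylate SMAD1, SMAD5 and SMAD9 in the BMP branch and SMAD2 and SMAD3 in the activin branch, the branch that TGF-β itself uses. Antagonists set how much ligand reaches the receptor: gremlin 1 binds BMP2 and BMP4, follistatin (Fst) binds activins nearly irreversibly, and BAMBI resembles a type I receptor that lacks the kinase. In the lung, BMP4 takes part in branching of the developing airways, and activin A, the dimer of 2 βA subunits encoded by Inhba, is known as a fibroblast product that rises in inflammation.

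Inhba and Inhbb encode the paralogous βA and βB activin subunits and moved in opposite directions with each agent in WT cells, and Bmp4 was the BMP ligand that fell with rmTGF-β1 in both genotypes. Their promoters are therefore shown, from 250 bases before to 50 bases after the annotated start of transcription, as given by RefSeq for build GRCm38.p6, 5′ to 3′ on the gene's strand. They lie at chr13:16011601-16011900 on the plus strand, chr1:119422199-119422498 on the minus strand and chr14:46390620-46390919 on the minus strand. Capitals mark a match to the letters of the TATA-box motif (TATAAA), whose function here was not tested.
Inhba: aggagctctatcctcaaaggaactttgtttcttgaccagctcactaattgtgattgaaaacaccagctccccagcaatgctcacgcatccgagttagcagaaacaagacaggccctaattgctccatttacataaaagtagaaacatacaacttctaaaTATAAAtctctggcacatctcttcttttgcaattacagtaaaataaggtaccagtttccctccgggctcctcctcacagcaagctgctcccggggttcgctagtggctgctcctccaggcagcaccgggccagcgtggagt
Inhbb: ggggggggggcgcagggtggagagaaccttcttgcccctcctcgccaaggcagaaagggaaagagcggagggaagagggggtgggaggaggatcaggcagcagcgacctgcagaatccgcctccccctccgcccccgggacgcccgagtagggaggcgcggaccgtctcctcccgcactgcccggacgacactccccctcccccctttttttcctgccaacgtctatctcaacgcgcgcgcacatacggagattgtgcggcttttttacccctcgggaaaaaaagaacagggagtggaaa
Bmp4: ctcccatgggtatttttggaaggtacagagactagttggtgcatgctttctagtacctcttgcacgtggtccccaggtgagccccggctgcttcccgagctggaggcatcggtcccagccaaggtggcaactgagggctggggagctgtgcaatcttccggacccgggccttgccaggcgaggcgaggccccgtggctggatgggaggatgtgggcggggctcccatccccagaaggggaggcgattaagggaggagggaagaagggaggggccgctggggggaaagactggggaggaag
RefSeq promoters were at hand for 6 of the 9 genes (Bmp4, Bmp6, Gdf10, Grem1, Inhba and Inhbb). They were searched on both strands for TATAAA, for the SMAD-binding CAGA box (CAGACA) and its palindrome (GTCTAGAC), for a GC-rich box bound by BMP-activated SMADs (GGCGCC), for the AP-1 site (TGANTCA), for the cAMP-response element (TGACGTCA) and for the κB site by its name. The Inhba promoter held TATAAA at position -91 from the start, a motif present in 13.6% of 32851 promoters of this length. GGCGCC occurred at -78 in Grem1 and at 16 in Gdf10 and is present in 11.9% of all promoters. The other 5 motifs, held by 21%, 0.213%, 7.81%, 1.79% and 8.46% of all promoters in the order just given, were in none of the 6 windows.

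In untreated WT fibroblasts, antagonists and the βA subunit were by far the most abundant of these mRNAs. Per kilobase of exon, Grem1 stood at 22498 normalized counts, rank 36 of 15977 tested genes with a known length, Inhba at 10208 (rank 111) and Fst at 4229 (rank 309). The remaining 6 genes were far lower, with Bmp4 at 264, Inhbb at 93.8, Bambi at 79.7, Gdf10 at 48.6, Bmp2 at 28.7 and Bmp6 at 13.99 normalized counts per kilobase, beside a median of 109.95 over all ranked genes. Neighbours in this order did not overlap between their libraries, except Inhbb and Bambi. With both agents the order changed at its top and in its middle: in WT libraries the lowest Inhba level (28936 per kilobase) lay above the highest Grem1 level (25176), and the lowest Bmp2 level (237) lay above the highest Bmp4 level (132). In libraries labelled TLR4-/- with PBS, Grem1 and Inhba overlapped at the top, and Inhbb (rank 5943) stood above Bmp4 (rank 8227).

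**Figure D1:**
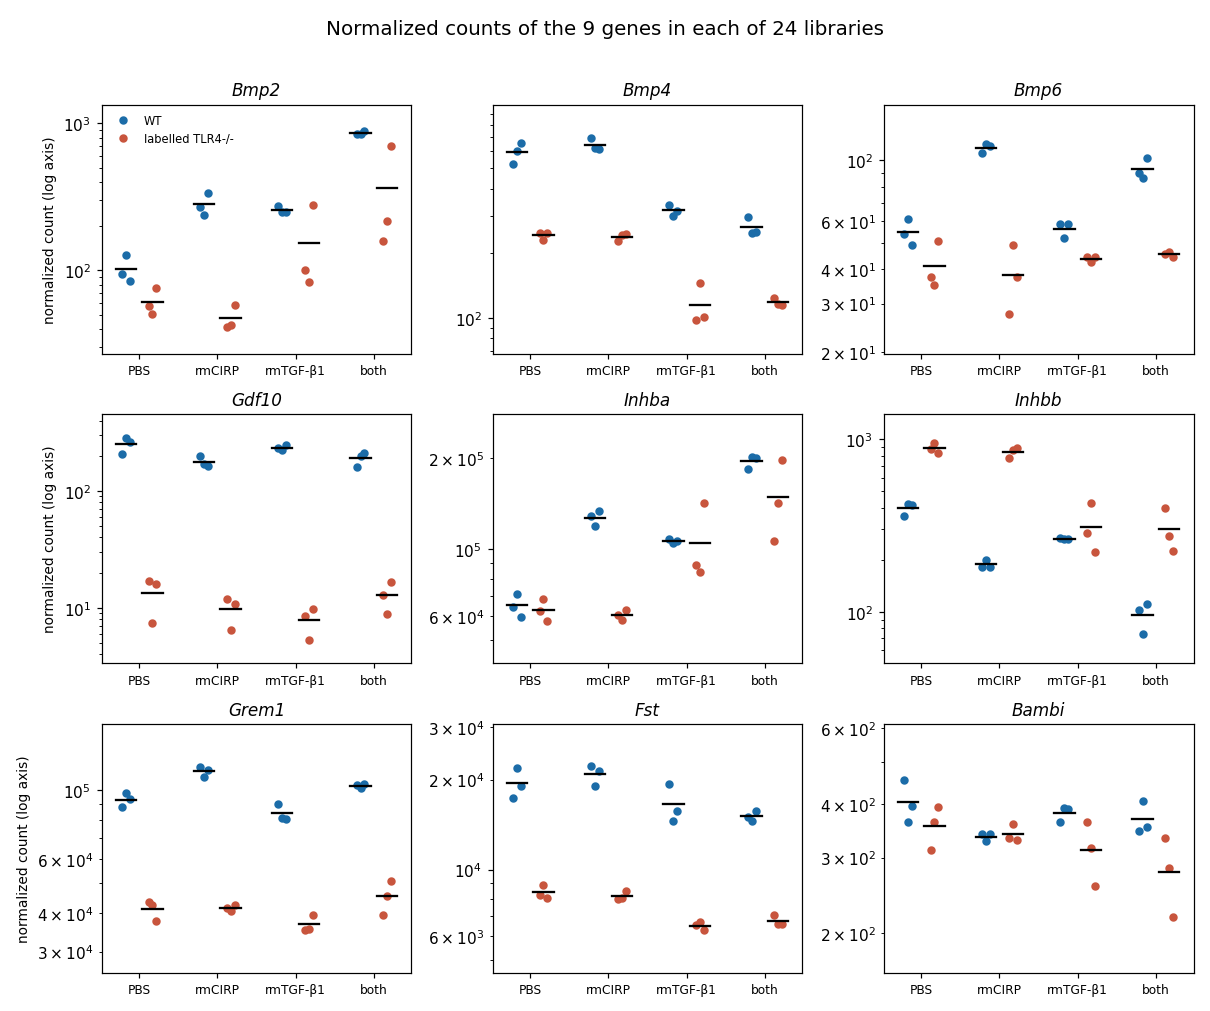
Normalized counts (log axis) of the 9 genes in the 24 libraries, by treatment on the x axis, with WT in blue and libraries labelled TLR4-/- in red; points are libraries and black bars the means of 3. Inhba and Bmp2 climb from PBS to both agents in WT while Inhbb descends, and Gdf10, Grem1, Fst and Bmp4 lie lower in every library labelled TLR4-/- than in every WT library of the same treatment. The share of all genes that separate in this way was not counted.

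The first question was what rmCIRP alone did to these genes in WT cells. It changed 7 of the 9: Bmp2, Bmp6, Inhba and Grem1 rose, and Inhbb, Gdf10 and Bambi fell, while 43.9% of all genes tested were called in this comparison. The median log2 change of the 9 was 0.11, beside -0.02 over all genes. In bulk RNA, a change in the share of cells that express a gene and a change in its RNA per cell cannot be told apart.

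Among the BMP ligands, Bmp2, an osteogenic and pro-differentiation BMP, had 95.3, 127 and 84.3 normalized counts in the 3 WT libraries with PBS and 268, 238 and 337 with rmCIRP. All rmCIRP libraries lay above all PBS libraries, which made a 2.74-fold rise (log2 1.45, SE 0.44, adjusted p = 0.012). Bmp6, a BMP best known for its role in iron regulation, had 53.9, 60.9 and 48.9 counts with PBS and 106, 114 and 113 with rmCIRP. Its groups did not overlap and its change of 1.02 (SE 0.14, adjusted p = 7.0e-06) had a smaller error than that of Bmp2 in the common fit. The order of the p-values depended on the libraries that stood apart, neither of them in this comparison. With both left out, adjusted p was 1.7e-08 for Bmp2 and 3.8e-06 for Bmp6. Bmp4 was at 523, 603 and 653 counts with PBS and at 692, 622 and 613 with rmCIRP. These ranges overlapped and the change of 0.11 (SE 0.09) did not pass the test (adjusted p = 0.37). Gdf10, also called BMP3b, went the other way, from 206, 288 and 265 to 198, 172 and 164 counts, with no overlap and a change of -0.51 (SE 0.14, adjusted p = 0.0052).

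The activin subunits split. Inhba rose from 64557, 71275 and 59865 to 129280, 119360 and 133540 normalized counts, a 1.95-fold rise (log2 0.96, SE 0.16, adjusted p = 7.4e-05). Inhbb fell from 360, 421 and 416 to 181, 201 and 183 counts, 2.13-fold (log2 -1.09, SE 0.19, adjusted p = 8.1e-05). In neither gene did the libraries of the 2 treatments overlap. Of the antagonists, Grem1 rose 1.23-fold, from 88418, 98147 and 93406 to 118970, 110660 and 116620 counts (log2 0.30, SE 0.07, adjusted p = 0.0018). Fst, at 17348, 21837 and 19029 counts with PBS and 22191, 18966 and 21300 with rmCIRP, overlapped between treatments (log2 0.10, SE 0.08, adjusted p = 0.39) and was called without PBS library 2 (log2 0.20, adjusted p = 0.072). Bambi fell from 455, 362 and 396 to 340, 327 and 340 counts (log2 -0.28, SE 0.12, adjusted p = 0.086). That call was lost without WT PBS library 1 (log2 -0.17, adjusted p = 0.38), without library 3 of the same group (adjusted p = 0.12) and without any rmCIRP library (adjusted p = 0.13, 0.19 and 0.17), and at a filter on a mean count of 10, and the other 6 calls held in each of these fits. The 13 macrophage markers also moved with rmCIRP in WT cells, 4 higher and 7 lower, with sums of 77459 to 82557 against 87829 to 95614 with PBS, and the fibroblast markers summed to 681670 to 726160 against 807070 to 866300. The smooth muscle and pericyte markers (3 of 5 lower, median -0.42) summed to 31055 to 33988 against 43386 to 46279, and the epithelial markers (3 of 3 tested lower, median -1.24) to 34.0 to 43.5 against 70.8 to 115. Of the endothelial markers 1 rose and 1 fell of 6, and of the mesothelial 0 rose and 2 fell of 5. Their part in the results above was not tested.

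None of the 9 genes was called with rmCIRP in libraries labelled TLR4-/-. Called genes made up 0% of all genes in that comparison, which had 1136 genes at an unadjusted p under 0.05, and DESeq2 called 33 genes, so the 0 of 9 is read against a background of 0. The values themselves stayed close. Inhba had 62710, 68373 and 58151 counts with PBS and 60494, 58451 and 62921 with rmCIRP (log2 -0.05, SE 0.16). Inhbb had 881, 948 and 837 counts with PBS and 777, 868 and 889 with rmCIRP (log2 -0.07, SE 0.15), and Bmp6 had 37.5, 35.0 and 50.8 against 27.5, 49.2 and 37.4 (log2 -0.10, SE 0.18). Each of the 9 genes overlapped between the treatments, and the share of all genes that did so was not counted. Log2 changes ran from -0.47 (SE 0.38) for Gdf10 to 0.01 (SE 0.07) for Grem1. Bmp2, at 57.3, 50.9 and 75.7 counts with PBS and 41.3, 42.7 and 58.0 with rmCIRP, had a change of -0.37 with a wide SE of 0.64.

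**Figure D2:**
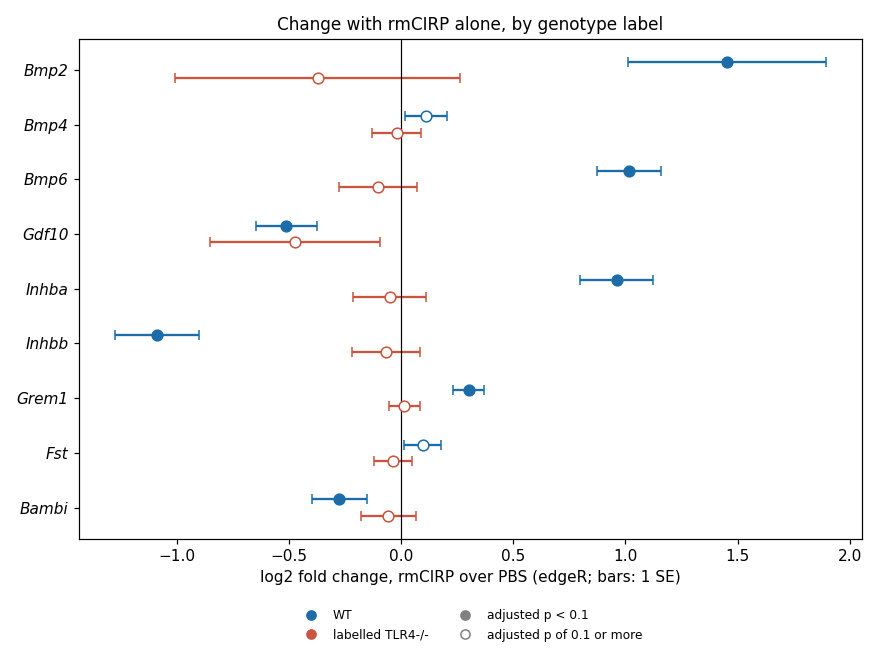
Log2 fold change of each gene with rmCIRP over PBS (x axis, bars 1 SE) in WT (blue) and in libraries labelled TLR4-/- (red); filled points have an adjusted p under 0.1. In WT, 7 points are filled, from -1.09 for Inhbb to 1.45 for Bmp2, and no red point is filled.

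A test of the genotype difference itself took the log2 change with rmCIRP in libraries labelled TLR4-/- minus that in WT. It was called for 5 of the 9 genes, beside 31.4% of all genes. It was -1.01 (SE 0.23, adjusted p = 0.0025) for Inhba, 1.02 (SE 0.24, adjusted p = 0.0034) for Inhbb, -1.12 (SE 0.23, adjusted p = 9.2e-04) for Bmp6, -0.29 (SE 0.10, adjusted p = 0.041) for Grem1 and -1.83 (SE 0.78, adjusted p = 0.092) for Bmp2. Gdf10 had a difference of 0.04 (SE 0.47, adjusted p = 0.97), with 16.8, 7.42 and 15.9 normalized counts in the PBS libraries labelled TLR4-/-. Bambi (0.22, SE 0.17), Bmp4 (-0.13, SE 0.14) and Fst (-0.13, SE 0.12) did not pass the test either. The Bmp2 difference lost its call in 10 of 12 fits that left out 1 of the compared libraries (adjusted p up to 0.19), all but those without library 2 of WT with PBS or with rmCIRP, and its adjusted p was 1.2e-05 when the 2 libraries that stood apart, neither of them in this contrast, were left out of the common fit.

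rmTGF-β1 alone moved a smaller set. In WT cells 5 of 9 genes were called, beside 12.4% of all genes: Bmp2 and Inhba rose, and Bmp4, Inhbb and Fst fell. The same 5 were called in the same directions in libraries labelled TLR4-/-, beside 23.9% of all genes.

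Bmp4 fell in both genotypes. It stood at 337, 299.97 and 315 counts in WT libraries with rmTGF-β1, all below the PBS libraries given above, a change of -0.90 (SE 0.10, adjusted p = 4.0e-06). Libraries labelled TLR4-/- showed a fall from 250, 232 and 249 to 97.5, 146 and 101 counts (log2 -1.09, SE 0.12, adjusted p = 1.5e-06). Bmp2 reached 274, 249 and 248 counts in WT, above every PBS library, with a change of 1.32 (SE 0.44, adjusted p = 0.066). In libraries labelled TLR4-/- it went from 57.3, 50.9 and 75.7 to 101, 82.9 and 279 counts, and the third of these is one of the libraries that stood apart. Its change there was 1.36 (SE 0.52, adjusted p = 0.072) with that library and 0.60 (adjusted p = 0.56) without it. With both libraries that stood apart left out, the WT change was 1.32 (adjusted p = 9.2e-07) and the other 0.60 (adjusted p = 0.069). Without WT PBS library 1 or 3, or without any WT library with rmTGF-β1, the WT call was lost (adjusted p from 0.13 to 0.20), as was the other call without any 1 of the PBS libraries labelled TLR4-/- (adjusted p from 0.11 to 0.18). Bmp6 (log2 0.04 and 0.10 in the 2 genotypes) and Gdf10 (-0.11 and -0.74, SE 0.39 for the latter) were not called, though Gdf10 was without PBS library 2 labelled TLR4-/- (-1.02, adjusted p = 0.094).

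For the activin subunits, rmTGF-β1 moved Inhba and Inhbb in the directions rmCIRP had in WT. These comparisons share their PBS libraries. Inhba had 108420, 104870 and 106690 counts in WT (log2 0.71, SE 0.16, adjusted p = 0.0084) and 89042, 83971 and 141970 in libraries labelled TLR4-/- (log2 0.74, SE 0.16, adjusted p = 0.0028), each above its own PBS libraries. The 141970 counts came from the library that stood apart. Leaving out both such libraries gave 0.46 (adjusted p = 3.0e-04). Inhbb had 266.3, 266.0 and 265.4 counts in WT, below 360, 421 and 416 with PBS (log2 -0.59, SE 0.18, adjusted p = 0.041). Its fall was larger in libraries labelled TLR4-/-, to 287, 426 and 221 counts from 881, 948 and 837 (log2 -1.52, SE 0.17, adjusted p = 1.3e-06). The 221 counts came from the library that stood apart, and leaving out both such libraries gave -1.32 (adjusted p = 9.7e-08). The difference between genotypes, -0.93 (SE 0.24), did not pass the test (adjusted p = 0.15). It passed with DESeq2 (adjusted p = 0.047), without library 2 labelled TLR4-/- with rmTGF-β1 (-1.21, adjusted p = 0.022) and with both libraries that stood apart left out (-0.73, adjusted p = 0.078). In that test of the genotype difference 0 of the 9 genes were called, beside 0.0861% of all genes by edgeR, with 1686 genes at an unadjusted p under 0.05 and 165 called by DESeq2. The WT call for Inhbb was lost without PBS library 2 or 3 or rmTGF-β1 library 2 or 3 (adjusted p from 0.10 to 0.13).

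Follistatin fell little. In WT it had 19286, 14558 and 15698 counts with rmTGF-β1, which overlapped the PBS libraries (log2 -0.24, SE 0.08, adjusted p = 0.080), and the call was lost without PBS library 2 or 3 or rmTGF-β1 library 2 or 3 (adjusted p from 0.14 to 0.42). The fall in libraries labelled TLR4-/- was from 8224, 8915 and 8042 to 6537, 6702 and 6260 counts with no overlap (log2 -0.36, SE 0.08, adjusted p = 0.0039). Grem1 was not called in either genotype (log2 -0.15 and -0.16, SE 0.07 for both), and neither was Bambi (-0.09 and -0.19). With both libraries that stood apart left out, Grem1 was called at -0.15 in WT (adjusted p = 0.061) and at -0.21 in libraries labelled TLR4-/- (adjusted p = 0.017), and in the latter also without PBS library 3 (-0.22, adjusted p = 0.052) or rmTGF-β1 library 3 (-0.21, adjusted p = 0.082).

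**Figure D3:**
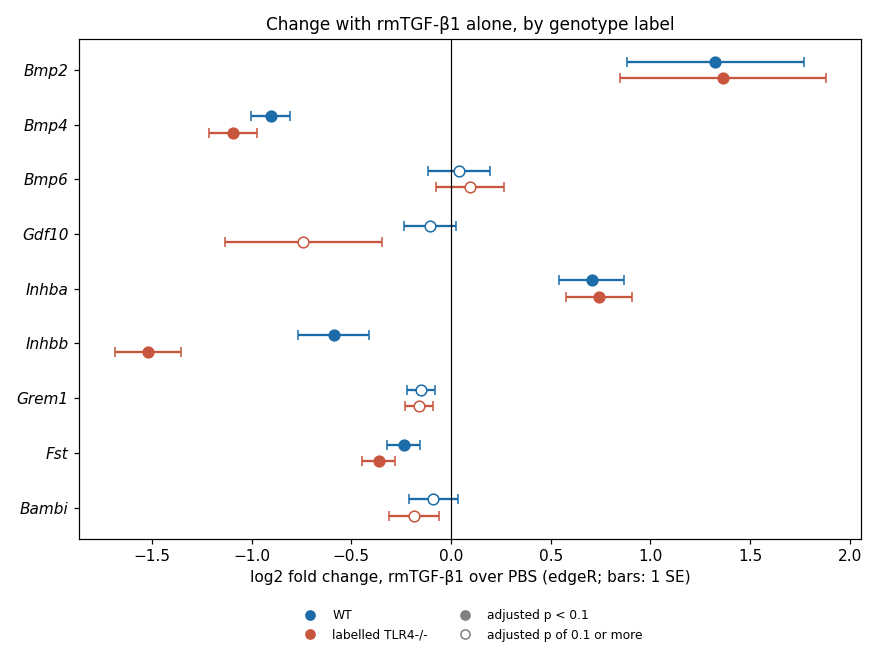
Log2 fold change of each gene with rmTGF-β1 over PBS (x axis, bars 1 SE) in WT (blue) and in libraries labelled TLR4-/- (red); filled points have an adjusted p under 0.1. Bmp2 and Inhba are filled to the right of 0 and Bmp4, Inhbb and Fst to the left in both genotypes, with Inhbb at -0.59 in WT and -1.52 in libraries labelled TLR4-/-.

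Adding rmCIRP to rmTGF-β1 in WT cells changed 7 of the 9 genes relative to rmTGF-β1 alone, beside 42.2% of all genes. Bmp2 reached 841, 841 and 884 counts with both agents, 8.38 times its mean with PBS, and rose by a log2 value of 1.73 (SE 0.36, adjusted p = 6.4e-04) over rmTGF-β1 and 1.60 (SE 0.36, adjusted p = 0.0033) over rmCIRP. Inhba reached 184900, 202500 and 200810 counts, 3.01 times its PBS mean, with changes of 0.87 (SE 0.16, adjusted p = 2.3e-04) over rmTGF-β1 and 0.62 (SE 0.16, adjusted p = 0.011) over rmCIRP. Inhbb dropped to 103, 74.3 and 111 counts, with changes of -1.47 (SE 0.22, adjusted p = 1.7e-05) and -0.97 (SE 0.23, adjusted p = 0.0054). For these 3 genes the libraries with both agents lay beyond every library with either agent alone. Bmp6 had 89.7, 85.9 and 102 counts with both agents, above 58.5, 52.0 and 58.3 with rmTGF-β1 (log2 0.71, SE 0.15, adjusted p = 5.8e-04). Grem1 had 103650, 101940 and 104430, above 90467, 81481 and 80933 (log2 0.29, SE 0.07, adjusted p = 0.0027). Bmp4 (297, 249.5 and 252 counts, log2 -0.26, adjusted p = 0.063) and Gdf10 (160, 199.6 and 214 against 234, 226 and 246, log2 -0.31, adjusted p = 0.086) fell by less, and leaving out single libraries took these 2 calls away. Bmp4 lost its call without rmTGF-β1 library 1 or 3 or library 2 or 3 with both agents (adjusted p from 0.11 to 0.19). Gdf10 lost it without any rmTGF-β1 library or library 1 or 2 with both agents (adjusted p from 0.10 to 0.36) and with DESeq2 (adjusted p = 0.15). Fst overlapped between these conditions (log2 -0.14, SE 0.08, adjusted p = 0.21) and was called without rmTGF-β1 library 2 (-0.23, adjusted p = 0.046).

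Against rmCIRP alone, the combination changed 5 of 9 genes, beside 20.5% of all genes. Besides Bmp2, Inhba and Inhbb, Bmp4 fell by 1.27 on the log2 scale (SE 0.10, adjusted p = 1.5e-08) and Fst, at 14982, 14543 and 15648 counts, fell by 0.47 (SE 0.08, adjusted p = 3.4e-04). Grem1 (-0.16, adjusted p = 0.13) and Bmp6 (-0.27, adjusted p = 0.20) lay below every rmCIRP library and Bambi above (0.13, adjusted p = 0.57), but none was called. Gdf10 overlapped. Grem1 was called with the compared libraries alone (adjusted p = 0.0012), with no filter (0.0026) and with both libraries that stood apart left out (0.032). Whether the response to rmCIRP depended on rmTGF-β1 in WT cells was tested as an interaction. It was called for 0 of 9 genes, beside 0.0492% of all genes by edgeR, with 917 genes at an unadjusted p under 0.05 and 37 called by DESeq2. The largest interaction in size, for Inhbb, was -0.38 (SE 0.29, adjusted p = 0.97), that of Bmp4 was -0.37 (SE 0.14, adjusted p = 0.77), and those of Bmp2 and Inhba were 0.28 (SE 0.58) and -0.09 (SE 0.23).

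Adding rmCIRP to rmTGF-β1 in libraries labelled TLR4-/- gave 1 call among the 9 genes, beside 2.69% of all genes. Grem1 had 39413, 45575 and 50821 counts with both agents and 35373, 35501 and 39471 with rmTGF-β1, ranges that overlapped (log2 0.29, SE 0.07, adjusted p = 0.073). The call was lost without library 1 or 2 with rmTGF-β1 (adjusted p = 0.37 and 0.20), without library 3 with both agents (log2 0.20, adjusted p = 0.35) and in a fit of the compared libraries alone (adjusted p = 0.68). Bmp2, at 159, 217 and 706 counts with both agents against 101, 82.9 and 279, had a change of 1.17 (SE 0.40, adjusted p = 0.14). Inhba, at 106860, 142610 and 198100 against 89042, 83971 and 141970, had one of 0.50 (SE 0.16, adjusted p = 0.13). In both genes the highest library of each condition was library 3, the libraries that stood apart. With these left out of both conditions, Bmp2 was called at 1.02 (adjusted p = 0.011) and Inhba at 0.52 (adjusted p = 0.0086), and each was also called without library 3 with rmTGF-β1 alone (1.94, adjusted p = 0.016, and 0.78, adjusted p = 0.0098) or without library 1 with both agents (1.53, adjusted p = 0.013, and 0.69, adjusted p = 0.0078). Bmp2 was also called without library 2 with both agents (1.44, adjusted p = 0.078). Without library 3 with both agents, the changes were 0.25 (adjusted p = 0.87) for Bmp2 and 0.25 (adjusted p = 0.68) for Inhba. Library 3 with both agents also had the highest macrophage sum (402820, against 353390 and 323210 in its replicates) and the highest endothelial sum (1447, against 908 and 769). Its fibroblast sum (696440, against 828310 and 793430) and its smooth muscle and pericyte sum (20763, against 29551 and 27858) were the lowest. The part of these in its Bmp2 and Inhba levels was not tested.

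The genotypes differed before any agent was added. With PBS, 6 of the 9 genes were called, 5 lower and 1 higher in libraries labelled TLR4-/-, beside 47.1% of all genes. Gdf10 had the largest difference, with 16.8, 7.42 and 15.9 normalized counts against 206, 288 and 265 in WT (log2 -4.22, SE 0.21, adjusted p = 1.2e-13), an 18.6-fold difference. Across all 12 libraries labelled TLR4-/- it had 5 to 17 raw counts. Bmp4 was lower by 1.28 on the log2 scale (SE 0.10), Fst by 1.21 (SE 0.08) and Grem1 by 1.18 (SE 0.07), each with no overlap, at adjusted p = 4.5e-10, 4.8e-11 and 4.7e-12. For these 4 genes every library labelled TLR4-/- lay below every WT library of the same treatment. The share of all genes that separated in this way was not counted, so this describes the 4 genes only. Bmp6 was lower by 0.41 (SE 0.17, adjusted p = 0.054), with ranges that overlapped. DESeq2 did not call it (adjusted p = 0.14), nor did a fit of the compared libraries alone (0.11) or with no filter (0.18). Fits without WT PBS library 1 or 2 or PBS library 1 or 2 labelled TLR4-/- did not call it either (adjusted p from 0.11 to 0.22). Inhbb was higher by 1.15 (SE 0.16, adjusted p = 4.4e-06). Inhba, with 62710, 68373 and 58151 counts against 64557, 71275 and 59865, had a difference of -0.05 (SE 0.16, adjusted p = 0.83), and Bambi one of -0.19 (SE 0.12, adjusted p = 0.24, or 0.089 with both libraries that stood apart left out). Bmp2 was lower in each of the 3 libraries but was not called in the common fit (log2 -0.74, SE 0.55, adjusted p = 0.31). It was called in a fit of the compared libraries alone (adjusted p = 0.0081) and with both libraries that stood apart left out (adjusted p = 0.0033).

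All 13 macrophage markers were higher with PBS in libraries labelled TLR4-/- (median log2 2.19), while the fibroblast markers had 1 higher and 3 lower of 10 (median 0.00). Of the 5 smooth muscle and pericyte markers 1 was higher and 3 lower (median -0.77), of the 6 endothelial markers 1 higher and 4 lower (median -1.23), and of the 5 mesothelial markers 3 higher and 1 lower (median 0.38). The 3 epithelial markers tested of 7 were all higher (median 1.89), with sums of 326 to 346 against 70.8 to 115. Their part in the genotype differences was not tested, and genotype, cell pool and the sex marker cannot be told apart in this design.

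**Figure D4:**
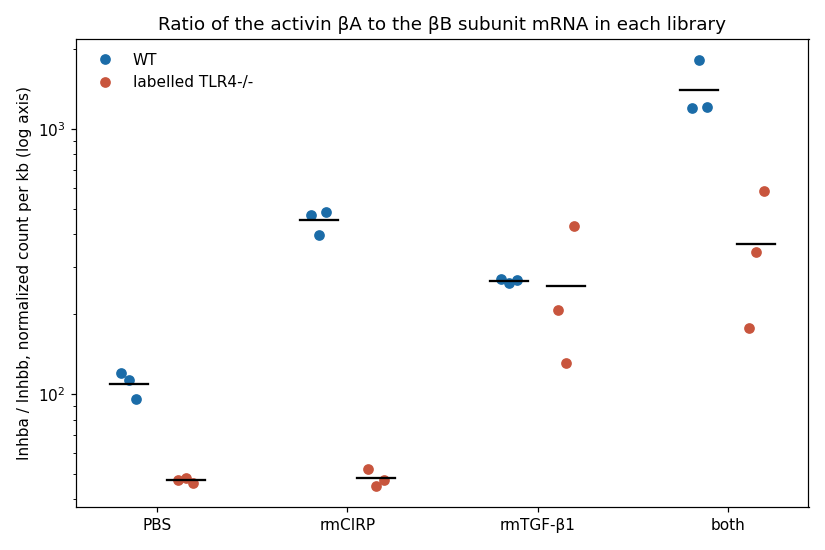
Ratio of Inhba to Inhbb normalized counts per kilobase (log axis) in each library by treatment, WT in blue and libraries labelled TLR4-/- in red, with black bars at the means of 3. The WT ratio lies between 95.7 and 119 with PBS and between 1196 and 1815 with both agents, and the ratio labelled TLR4-/- lies between 44.9 and 51.9 with PBS or rmCIRP.

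Because the subunits moved apart, their ratio within each library was computed after these values were seen, as a description with no test. In WT libraries with PBS there were 109 ± 12.2 (SD, n = 3) Inhba counts for each Inhbb count, per kilobase. The WT ratio was 452 ± 49.1 after rmCIRP, 267 ± 4.31 after rmTGF-β1 and 1406 ± 355 after the combination. In libraries labelled TLR4-/- the ratio was 47.2 ± 0.889 for PBS, 48.0 ± 3.57 after rmCIRP, 255 ± 154 after rmTGF-β1 and 368 ± 205 after the combination (SD, n = 3 for each). The 4 WT conditions did not overlap one another. Among libraries labelled TLR4-/-, those with PBS and rmCIRP overlapped, as did those with rmTGF-β1 (131 to 428) and with both (177 to 585).

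The rest of the pathway was counted from lists of genes, whose shares called are to be read against the share of all genes in the same comparison. With rmCIRP in WT cells, where 43.9% of all genes were called, 5 of 12 receptors and co-receptors rose and 0 fell (median log2 0.11, beside -0.02 over all genes). They included Tgfbr3 (betaglycan, a co-receptor for TGF-β2 and inhibin, 0.56), Acvr1b (the type I receptor of activin, 0.39) and Rgmb (a BMP co-receptor, 0.37). Of the 6 SMADs, 3 rose and 1 fell (median 0.08), with Smad3 at 0.41 and Smad9, of the BMP branch, at -0.58. Among 13 target and feedback genes 4 rose and 3 fell (median 0.05), with Id4, a BMP-responsive inhibitor of bHLH factors, at -0.48, the inhibitory SMAD Smad6 at -0.44 and the SMAD co-repressor Skil at 0.34. Of 13 other antagonists 1 rose and 4 fell (median -0.15), with Crim1, which tethers BMPs, at -0.62, Bmper at -0.35 and Nbl1 at -0.26. Of 10 other ligands 1 rose and 2 fell (median 0.07), with Gdf6 at -0.81 and Gdf15 at -0.33, and of 5 proteases that process ligands or antagonists 0 rose and 2 fell (median -0.07), Pcsk6 at -0.64 and Tll1 at -0.32. Of these 6 lists, 0 genes were called with rmCIRP in libraries labelled TLR4-/-.

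With rmTGF-β1, which called 12.4% of all genes in WT and 23.9% in libraries labelled TLR4-/-, 4 of the 5 proteases rose in WT (median 0.24, beside -0.02 over all genes) and 4 rose and 1 fell in libraries labelled TLR4-/- (median 0.38, beside -0.0015). Pcsk5, a proprotein convertase, rose by 0.80 in WT and 0.94 in the other genotype, and Tll1, a tolloid-like protease that can cleave chordin, by 0.31 and 0.47. Receptors went both ways, 3 higher and 3 lower in WT (median -0.03) and 3 higher and 4 lower in libraries labelled TLR4-/- (median 0.11). Tgfbr3 fell (-0.64 and -1.08), as did Acvr1b (-0.32 in each), and Acvr1, a type I receptor for BMPs and activins, rose (0.30 and 0.70). In the main fit Acvr1 was the 1 gene of the 6 lists whose response was called different between genotypes (0.40, adjusted p = 0.044). That call does not hold in every fit. The test called 0 genes without WT PBS library 1 or 2 or WT rmTGF-β1 library 2 or 3. It also called 0 without PBS library 2 or rmTGF-β1 library 1 labelled TLR4-/-. The follistatin-like antagonist Fstl3 rose by 0.71 and 0.64, among 2 higher and 0 lower of 13 antagonists in WT and 3 higher and 3 lower in libraries labelled TLR4-/-. Of the 13 targets, 2 rose and 2 fell in WT and 4 rose and 6 fell in the other genotype (median -0.25), with Id4 at -0.36 and -0.86. Of the 6 SMADs, 0 rose and 1 fell in WT and 0 rose and 2 fell in the other genotype, with Smad3 at -0.40 and -0.56, and of 10 ligands 0 rose and 2 and 3 fell, with Mstn at -0.50 and -0.62. In libraries labelled TLR4-/- with PBS, 9 of 13 other antagonists were lower than in WT and 0 higher (median -0.24, beside -0.02 and 47.1% called over all genes), among them Chrdl2, a chordin-like protein (-2.65). This was not particular to antagonists. Of 12 receptors 0 were higher and 5 lower, of 6 SMADs 0 and 4, and of 5 proteases 0 and 3 (medians -0.11, -0.17 and -0.34). Other ligands had 3 higher and 3 lower of 10, and targets 3 and 5 of 13.

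Across the 24 libraries the 9 genes fell into unlike patterns. Pearson's r of log2 CPM was 0.956 between Bmp2 and Inhba and -0.936 between Bmp2 and Inhbb, and 0.955, 0.950 and 0.946 among Grem1, Gdf10 and Fst. The points share 8 conditions and 2 genotypes, so these are descriptions. Of the 12310 genes that averaged 50 normalized counts or more, the 2 most like Inhba were Noc2l (0.981) and Nol6 (0.980), and Nol6 (0.971) and Gja1 (0.971) were the most like Bmp2. Those nearest to Inhbb were Celf2 (0.966) and Fhdc1 (0.961), to Bmp4 Pik3r1 (0.978) and 1110012L19Rik (0.973), and to Bmp6 Trp53 (0.957) and Mir155hg (0.941). Grem1 was nearest to Sema3c (0.993) and Vcan (0.991), Fst to Frzb (0.991) and Fgf10 (0.989), Gdf10 to Rab39b (0.988) and Sod3 (0.987), and Bambi to Gtse1 (0.934) and Smad9 (0.899).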

How the data were processed

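Total RNA libraries (TruSeq Stranded) were sequenced on a NextSeq 550. Reads were aligned by the authors with STAR2 (GENCODE reference for mouse) and counted with ht-seq. The deposited tables hold 1 raw, unnormalized count for every gene symbol. The submitters' processing notes name the build NCBIM37, and the annotation release and strand option are not given in the sources used here. The 5 tally lines of each table were left out.

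Counts of all 24 libraries were fitted in R 4.3.3 with edgeR 4.0.16 (filterByExpr, TMM, 1 mean per condition, glmQLFit and glmQLFTest), and 11 contrasts were tested. SE is the size of the log2 fold change over the square root of F. Normalized counts use DESeq2 1.42.0 size factors. Lengths are merged exons of GENCODE M21, matched by symbol.

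The 9 genes and the gene lists were chosen with earlier results of these data known. List genes are named by the largest change past the threshold, at most 3 for each list and comparison, with a mean of 50 normalized counts or more. Some genes that meet this rule are counted but not reported by name. The alternatives were RLE scaling, other filters, DESeq2, the compared libraries alone, a replicate block and leaving out each library, and, chosen after seeing the data, leaving out both libraries that stood apart.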

Additional observations from a re-analysis of the deposited data

Results flagged for a closer look

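The change with rmCIRP differed between the genotype labels for 5 of the 9 genes, by edgeR's test of the difference itself (labelled TLR4-/- minus WT, log2), beside 31.4% of all genes called in the same test. The difference was -1.83 for Bmp2, -1.12 for Bmp6, -0.29 for Grem1, -1.01 for Inhba and 1.02 for Inhbb. The Bmp2 call was lost in 10 of 12 fits that left out 1 of the compared libraries. In each of these genes the WT libraries with PBS and with rmCIRP did not overlap. In libraries labelled TLR4-/- all 9 genes overlapped between these treatments, called or not. How many of all genes overlapped was not counted in either genotype, so the overlaps cannot be read as a trait of these genes. The same libraries gave the calls, so the overlaps describe the called differences and are no further evidence for them. The 2 genotypes also differed in the macrophage marker sum and in Xist, whose part in these differences was not tested.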

How the results depend on the processing

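RLE scaling kept every member's direction and side of the threshold. With both libraries that stood apart left out, which was chosen after seeing the data, no member's call was lost, 8 were gained, rmTGF-β1 in WT cells called 3216 genes, rmCIRP in libraries labelled TLR4-/- 16, the genotype difference in the rmTGF-β1 response 190 and the rmCIRP by rmTGF-β1 interaction 92. Differences that were not called changed sign there: Bmp4 to -0.013 for both agents against rmTGF-β1 in libraries labelled TLR4-/-, and, for the genotype difference with rmTGF-β1, Bambi to 0.029, Bmp2 to -0.73 and Inhba to -0.24. The cause was not tested.

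In libraries labelled TLR4-/-, rmCIRP called 149 genes with no filter, 29 with the compared libraries alone and 33 with DESeq2. Adding rmCIRP to rmTGF-β1 there called 1580, 0 and 900 genes, and 3, 0 and 3 of the 9 members, with 3 members also when both libraries that stood apart were left out. The genotype difference with rmTGF-β1 called 563 genes with no filter, 23 with the filter at a mean of 10 and 165 with DESeq2. Of the members it called 1 with no filter, 1 with DESeq2 and 1 without both libraries that stood apart, and its Inhba value turned to -8.4e-04 with no filter. The rmCIRP by rmTGF-β1 interaction called 198 genes with no filter (1 member), 125 with the compared libraries alone and 37 with DESeq2.

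On average, same-numbered libraries did not deviate together (mean r 0.01 over 84 pairs, from -0.12 to 0.37), so the numbers were not taken as pairing them. Both libraries that stood apart are number 3, however. Within its condition, each had the highest Bmp2 and Inhba and the lowest Inhbb and Bambi normalized counts. A fit with the replicate block called 810 genes and 3 members for both agents against rmTGF-β1 in libraries labelled TLR4-/- (Bmp2 adjusted p = 0.079, Inhba 0.088), 1 gene for rmCIRP there and 22 for the genotype difference with rmTGF-β1, where Bmp2 turned to -0.0084. It changed no other member's call.

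Leaving out 1 compared library at a time gave these ranges. For rmTGF-β1 in WT cells 1029 to 1690 genes and 2 to 4 members were called, and log2 changes ran from -0.15 to 0.023 for Bambi, -0.032 to 0.14 for Bmp6 and -0.22 to 0.0087 for Gdf10. With rmCIRP in libraries labelled TLR4-/-, 0 to 9 genes were called, and changes ran from -0.14 to 0.014 for Bambi, -0.052 to 0.0075 for Bmp4, -0.35 to 0.076 for Bmp6, -0.072 to 0.0088 for Fst, -0.053 to 0.054 for Grem1 and -0.11 to 0.0092 for Inhba. With rmTGF-β1 there, 2517 to 3783 genes were called and Bmp6 ran from -0.0047 to 0.28. With both agents against rmTGF-β1 there, 0 to 2674 genes and 0 to 3 members were called, and changes ran from -0.047 to 0.24 for Bmp4 and -0.29 to 0.25 for Inhbb. Between genotypes with PBS, Inhba ran from -0.12 to 0.0302. The genotype difference with rmCIRP ran from -0.24 to 0.24 for Gdf10. That with rmTGF-β1 called 0 to 119 genes and 0 to 1 members and ran from -0.24 to 0.032 for Bambi, -0.73 to 0.33 for Bmp2, -0.042 to 0.22 for Bmp6, -0.23 to 0.0049 for Fst, -0.085 to 0.0502 for Grem1 and -0.24 to 0.18 for Inhba. The rmCIRP by rmTGF-β1 interaction called 2 to 7 genes, and Grem1 ran from -0.051 to 0.042. In these fits a condition keeps 2 libraries.

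Gdf10 in libraries labelled TLR4-/-, at 5 to 17 raw counts, and the spread of Bmp2 limit what can be said of these genes. That spread was widest in libraries labelled TLR4-/- with rmTGF-β1 (154 ± 108 normalized counts, SD, n = 3) and with both agents (361 ± 300). These conditions hold the libraries that stood apart. All comparisons of the common fit share 1 estimate of the spread, so it bears on Bmp2 in WT too.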

Other observations

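The wider pathway lists were also counted for rmCIRP plus rmTGF-β1 against rmTGF-β1 in WT cells, where 42.2% of all genes were called. Of the 13 BMP target and feedback genes, 3 rose and 4 fell (median log2 -0.08, beside -0.01 over all genes tested), by edgeR at an adjusted p under 0.1. The inhibitors of DNA binding Id4 and Id1, and the inhibitory SMAD Smad6, changed by -0.67 (adjusted p = 2.9e-04), -0.52 (1.1e-05) and -0.66 (0.0027). The genes that rose were Skil (0.31), Smurf1 (0.19) and Smurf2 (0.10), and the fourth that fell was Id3 (-0.44). Of these, Smurf1, Smurf2 and Id3 lie outside the rule for naming and were chosen after their values were seen. Id4 went from a mean of 923 to 583 normalized counts, Id1 from 2819 to 1973 and Smad6 from 1756 to 1117. In the same comparison 6 of 12 receptors rose and 1 fell (median 0.20), with Rgmb at 0.39, Tgfbr3 at 0.37 and Acvr1b at 0.32. Of the 13 other antagonists, 1 rose and 5 fell (median -0.09), with Crim1 at -0.69, Bmper at -0.37 and Nbl1 at -0.25.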
